A study of Mus musculus with 21 samples.

Results

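The collagen genes were examined in bulk RNA-seq of mouse midbrain from mice given the dopaminergic neurotoxin MPTP, the exercise-induced peptide hormone irisin, or both. The family was taken by name: every gene whose symbol is Col, a number, a and a number, which gave 44 genes of the 33829 listed for the pre-treatment experiment and the same 44 of the 55385 listed for the delayed experiment. All 44 passed the filter on low counts in each experiment, among 22641 and 21922 tested genes, and 42 and 43 of them had a count above 0 in every mouse. The members were chosen by name, with no measured value. The family as a whole was selected on a measured contrast: earlier results of these data had matrix genes lower with irisin after MPTP than with MPTP alone. The values of that contrast are therefore a description and support nothing by themselves. The same holds for the other comparisons that use those MPTP mice: MPTP against control in the delayed experiment, and the difference between irisin effects.

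The study held 21 male C57BL/6 mice in 7 groups of 3, all injected intraperitoneally. The labels give their age as 6 weeks, while the methods give 6 to 8 weeks. In the pre-treatment experiment the controls received ddH2O for 10 days, the MPTP mice received ddH2O for 5 days and then MPTP at 30 mg/kg/d for 5 days, and the remaining mice received irisin at 200 ug/kg/d for 5 days and then the same MPTP course. For the delayed experiment the order was turned round: controls received ddH2O for 10 days, MPTP mice received MPTP for 5 days and then ddH2O for 5 days, the combined group received MPTP for 5 days and then irisin for 5 days, and an irisin group received ddH2O for 5 days and then irisin for 5 days. MPTP was thus the last agent given in the first experiment and was followed by 5 further days of injections in the second. The labels name midbrain and the study's methods name hand-dissected nigral tissue. Th, the rate-limiting enzyme of dopamine synthesis, was measured at 21.3 to 63.3 CPM (counts scaled to the size of each library) over all mice, while Pitx3, another marker of these neurons, was listed at 0 in 1 mouse of the MPTP group of each experiment and in 1 mouse given irisin before MPTP. Th in the delayed experiment was 63.3, 59.2 and 50.9 CPM in controls and 31.0, 31.5 and 46.0 CPM after MPTP (log2 fold change -0.68 ± 0.14 SE, adjusted p = 0.188, edgeR quasi-likelihood test). DESeq2 put Th past the threshold (adjusted p = 0.00451), as did edgeR without MPTP mouse 3 (0.0121), and over all alternatives its adjusted p ranged from 0.00451 to 0.528. Nr4a2, a transcription factor of these neurons, had -0.58 ± 0.18 in that comparison, and all 7 dopaminergic neuron markers were negative. In the pre-treatment experiment, MPTP against control gave 4 positive and 3 negative values, with a median of 0.16 (49.6% of all tested genes positive). By edgeR 1 of the 7 markers had an unadjusted p under 0.05 there and was lower with MPTP (6.03% of all tested genes had such a p). The 7 markers summed to 513 to 814.8 CPM in those controls and 529.3 to 845.5 CPM with MPTP. With irisin before MPTP against MPTP all 7 markers were negative, with a median of -0.55 (49.3% of all tested genes negative). Among them Nr4a2 had -0.85 ± 0.26 and the dopamine transporter Slc6a3 had -0.89 ± 0.23 (adjusted p = 0.494 by edgeR, 0.0331 by DESeq2, and 0.0331 to 0.902 over all alternatives).

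Collagens are matrix proteins built from 3 chains that wind into a triple helix. Along each chain the same place in every run of 3 residues has to be glycine, which is the only residue small enough for the helix axis, and prolines in the repeat are hydroxylated to hold the helix together. The family divides by what the helices form: fibrils (types I, II, III, V, XI, XXIV and XXVII), sheets in basement membranes (type IV), beaded filaments (type VI), short-chain networks (types VIII and X), helices lying on fibrils (the FACIT types), and helices anchored in cell membranes. In brain, basement membrane collagens surround every vessel, while fibrillar collagens come mainly from fibroblasts of the meninges and of larger vessels.

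The glycine rule can be read in the genes themselves. In the coding sequences of GENCODE M21 (GRCm38), the longest unbroken run of 3-codon repeats that start with a glycine codon had between 23 and 344 repeats over the 44 collagen genes, with a median of 58.5. A run of at least 10 repeats was found in all 44 and in 54 of 21712 other coding genes. Col3a1, the chain of fibrillar type III collagen, held the longest run with 344 repeats, and of the other fibrillar chains, Col1a1, Col1a2, Col2a1, Col5a1, Col5a2, Col11a1 and Col11a2 held 338 or 339, Col5a3 held 337, and Col24a1 and Col27a1 held only 216 and 217. The runs of type IV chains were much shorter, 40 repeats in Col4a1 and 66 in Col4a2, whose helices are known to be interrupted, and 79.0% and 74.9% of their codons lay in runs of 3 or more repeats. Col6a1 and Col6a2, chains of type VI collagen, held a longest run of 87 repeats each, and 31.9% of the codons of either lay in runs of 3 or more. To show the repeat that defines the family, the first 9 repeats of the longest run are printed for 5 members of the results. Only the glycine codon that opens each repeat is in capitals, and glycine codons at other places are in small letters. The stretches were read from codons 164 to 190 of Col3a1, 777 to 803 of Col4a2, 256 to 282 of Col6a1, 352 to 378 of Col8a1 and 189 to 215 of Col25a1, counted from the start codon.

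Col3a1: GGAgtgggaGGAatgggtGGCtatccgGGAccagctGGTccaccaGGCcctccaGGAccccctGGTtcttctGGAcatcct
Col4a2: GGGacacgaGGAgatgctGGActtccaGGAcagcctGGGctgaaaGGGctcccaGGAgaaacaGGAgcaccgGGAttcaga
Col6a1: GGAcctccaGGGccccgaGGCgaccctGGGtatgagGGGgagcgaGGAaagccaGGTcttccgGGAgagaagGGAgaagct
Col8a1: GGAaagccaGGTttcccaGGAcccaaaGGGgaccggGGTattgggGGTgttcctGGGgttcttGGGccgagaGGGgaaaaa
Col25a1: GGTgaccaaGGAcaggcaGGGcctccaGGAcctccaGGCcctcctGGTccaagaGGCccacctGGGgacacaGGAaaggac

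Glycine codons with A, C, G and T in the last position all occurred in these stretches, and proline codons starting with CC filled many of the places between them.

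The promoters show how some of the genes are placed. Col4a1 and Col4a2, the chains of the common type IV collagen, lie head to head on chromosome 8 (GRCm38): Col4a1 from 11198423 to 11312826 on the minus strand and Col4a2 from 11312805 to 11449287 on the plus strand, so that the gene models overlap by 22 bases. Their starts are 21 bases apart. Col4a4 and Col4a3 on chromosome 1 are head to head with 71 bases between them, and Col4a6 and Col4a5 on the X chromosome with 1308 bases between them. Col3a1 and Col5a2, both fibrillar, lie tail to tail on chromosome 1, and Col6a2 and Col6a1 lie on the same strand of chromosome 10 with 85161 bases between them. RefSeq windows of 300 bases (GRCm38.p6, 250 bases before to 50 bases after the start) were at hand for 35 of the 44 genes. Below are those of 6 members that the results turn on, each 5′ to 3′ on the strand of its gene, with matches to 4 short motifs in capitals. The motifs were the CCAAT box (CCAAT), the GC box (GGGCGG), the TATA box (TATAAA) and the AP-1 site (TGACTCA), searched on both strands. The windows are chr8:11312777-11313076 (Col4a1, minus), chr8:11312555-11312854 (Col4a2, plus), chr1:45311288-45311587 (Col3a1, plus), chr10:76725995-76726294 (Col6a1, minus), chr16:57754688-57754987 (Col8a1, minus) and chr4:126286544-126286843 (Col8a2, plus).

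Col4a1: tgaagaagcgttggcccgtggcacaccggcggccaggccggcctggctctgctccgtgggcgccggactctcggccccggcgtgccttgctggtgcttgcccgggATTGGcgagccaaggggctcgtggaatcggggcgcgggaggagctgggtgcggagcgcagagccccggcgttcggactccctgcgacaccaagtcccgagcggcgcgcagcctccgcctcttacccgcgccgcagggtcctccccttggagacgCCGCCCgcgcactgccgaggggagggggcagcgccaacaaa
Col4a2: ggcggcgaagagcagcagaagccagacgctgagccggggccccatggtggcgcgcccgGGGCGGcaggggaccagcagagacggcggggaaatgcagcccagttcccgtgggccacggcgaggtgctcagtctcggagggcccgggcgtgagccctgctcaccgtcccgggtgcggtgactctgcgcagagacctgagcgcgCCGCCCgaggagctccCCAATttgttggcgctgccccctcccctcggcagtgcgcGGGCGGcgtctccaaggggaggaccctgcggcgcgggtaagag
Col3a1: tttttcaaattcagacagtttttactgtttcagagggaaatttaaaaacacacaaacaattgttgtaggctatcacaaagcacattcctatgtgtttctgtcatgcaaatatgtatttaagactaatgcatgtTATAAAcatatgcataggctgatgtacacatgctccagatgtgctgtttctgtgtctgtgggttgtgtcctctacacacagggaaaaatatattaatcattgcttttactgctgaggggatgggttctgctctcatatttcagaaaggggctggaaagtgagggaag
Col6a1: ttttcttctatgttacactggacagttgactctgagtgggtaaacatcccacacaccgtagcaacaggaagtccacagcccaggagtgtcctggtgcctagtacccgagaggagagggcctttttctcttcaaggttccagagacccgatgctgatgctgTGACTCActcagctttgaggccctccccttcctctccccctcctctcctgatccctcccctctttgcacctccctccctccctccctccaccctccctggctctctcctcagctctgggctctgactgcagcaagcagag
Col8a1: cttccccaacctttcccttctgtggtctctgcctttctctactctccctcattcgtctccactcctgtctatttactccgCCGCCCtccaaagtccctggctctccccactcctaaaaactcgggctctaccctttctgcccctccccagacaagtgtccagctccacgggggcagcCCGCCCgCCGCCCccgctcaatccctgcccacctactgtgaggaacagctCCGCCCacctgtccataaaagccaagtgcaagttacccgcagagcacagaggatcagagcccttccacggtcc
Col8a2: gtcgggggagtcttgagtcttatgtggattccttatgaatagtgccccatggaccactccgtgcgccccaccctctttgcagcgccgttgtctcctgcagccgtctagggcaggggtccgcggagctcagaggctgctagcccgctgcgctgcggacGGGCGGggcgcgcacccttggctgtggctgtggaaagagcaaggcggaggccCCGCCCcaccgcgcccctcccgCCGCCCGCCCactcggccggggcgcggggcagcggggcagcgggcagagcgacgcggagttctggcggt

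The Col4a1 and Col4a2 windows overlap by 78 bases and share one GC box, which begins 9 bases past the Col4a1 start on its strand and 7 bases past the Col4a2 start on the other. They were rich in G and C (74.0% and 73.7%, against a median of 52.7% over all 32851 promoter windows). Col3a1 was at 37.7% and held a TATA box 117 bases before its start. Col6a1 held an AP-1 site at 90 bases before its RefSeq start (76726044). The deposited gene model of Col6a1 begins upstream of that site, at 76726168, so the match lies inside it. Col8a1 and Col8a2 held 4 GC boxes each, the last 2 of Col8a2 overlapping. Over all windows, 37.4% held a CCAAT box, 35.7% a GC box, 13.6% a TATA box and 5.2% an AP-1 site. Of the 35 collagen windows, 12, 22, 5 and 1 did. A match is a description of the letters and says nothing of binding.

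Levels between genes were compared in FPKM, a value corrected for both transcript length and sequencing depth. The basement membrane chain Col4a2 had the highest mean level of the family in both experiments, 8.36 FPKM over the 9 mice of the pre-treatment experiment and 7.45 over the 12 of the delayed experiment, and ranged only from 6.43 to 8.74 FPKM over the delayed mice. Its partner Col4a1 was at 4.50 and 5.17 FPKM. Col16a1, a FACIT collagen, was at 6.76 and 4.10, and the fibrillar chain Col11a2, best known from cartilage, at 4.12 and 4.57. Col9a2 and Col9a3, FACIT chains of type IX collagen, were at 3.45 and 3.48 and at 2.31 and 3.12 FPKM. The multiplexin Col15a1, found in vessel basement membranes, was at 2.39 and 1.37. A mean of at least 1 FPKM was reached by 16 members in the pre-treatment and 18 in the delayed experiment, and 11 were under 0.2 FPKM in each. Col10a1, made by hypertrophic cartilage, was lowest at 0.0279 and 0.041 FPKM.

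**Figure D1:**
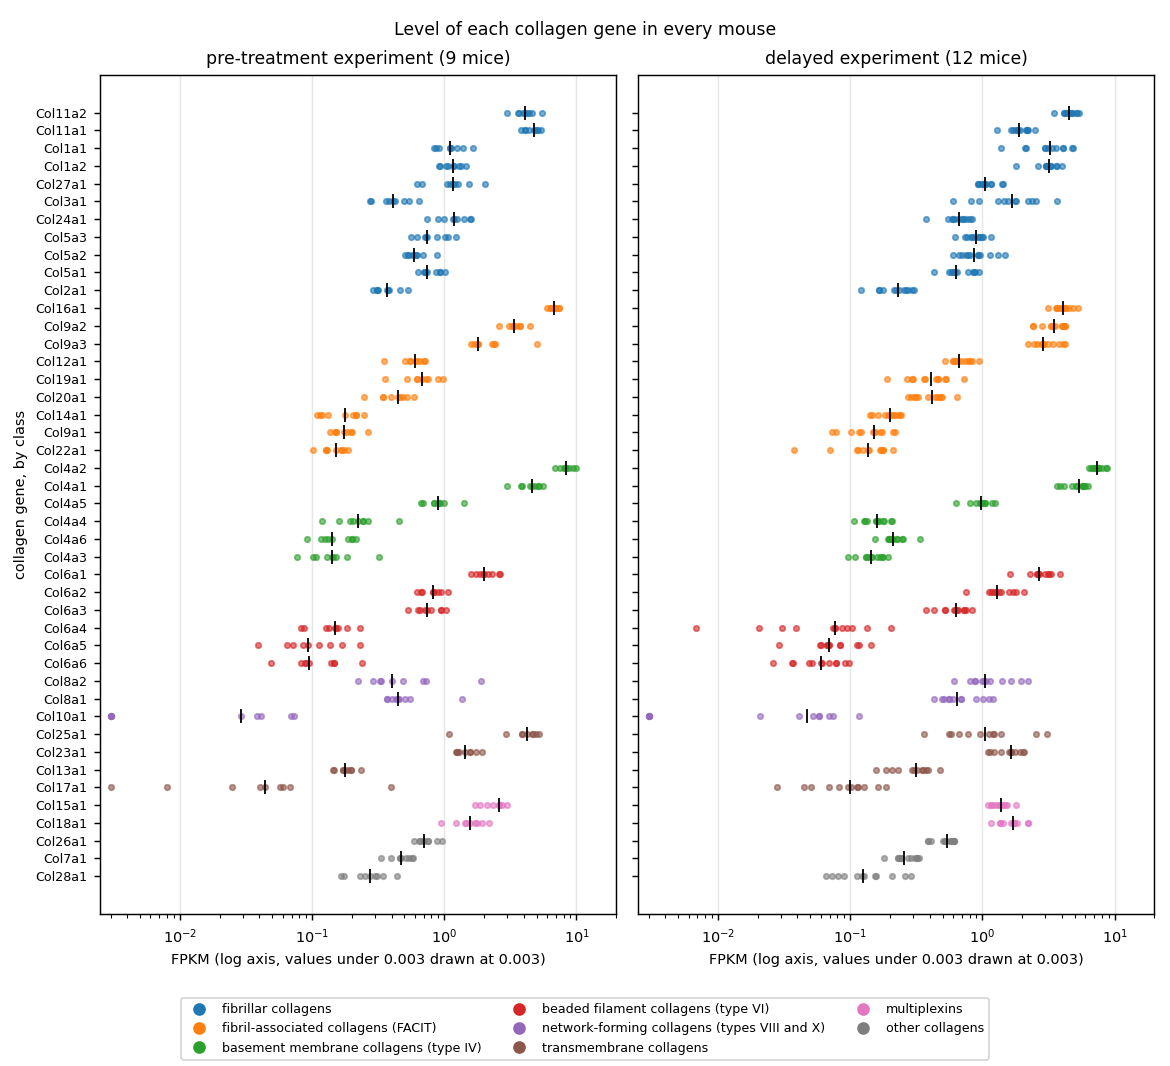
FPKM (log axis) of each of the 44 collagen genes in every mouse, with the 9 mice of the pre-treatment experiment on the left and the 12 of the delayed experiment on the right. Points are mice, black ticks are medians, colours are collagen classes. Col4a2 leads in both panels at a mean of 8.36 and 7.45 FPKM, Col10a1 is lowest, and Col17a1, Col25a1 and Col8a2 each have mice far from their median.

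Partner chains kept different proportions. The Col1a1 to Col1a2 ratio, in FPKM, was 0.755 to 1.22 over the pre-treatment mice and 0.647 to 1.31 over the delayed mice, with medians of 0.95 and 0.983. The Col4a2 to Col4a1 ratio had a median of 1.79 in the first and 1.37 in the second experiment, and Col6a1 stood above Col6a2 in every mouse, by 1.6 times at the least. Col8a1 to Col8a2 had a median of 1.26 in the pre-treatment and 0.596 in the delayed experiment. The tables of the 2 experiments were made separately, so a difference of level between them was not tested. Side by side, the fibrillar chains of the interstitium had higher means in the delayed table (Col1a1 3.27 against 1.14 FPKM, Col1a2 3.14 against 1.15, Col3a1 1.75 against 0.424). Col11a1 and the transmembrane collagen Col25a1 had lower ones (1.94 against 4.62 and 1.21 against 3.94 FPKM).

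Collagen genes varied more between mice of a group than most genes. The SD of log2 CPM within groups had a median of 0.35 over the collagen genes and 0.27 over all tested genes in the pre-treatment experiment, and of 0.32 and 0.25 in the delayed experiment. It was above the median of all genes in 29 and 36 of the 44 members. Col16a1 varied least in the pre-treatment experiment (0.11) and Col4a2 in the delayed experiment (0.15). Col25a1, a neuronal collagen whose shed fragment is found in amyloid plaques, had an SD of 0.73 and 0.96. It was 5.42, 38.0 and 16.8 CPM in the delayed controls and 20.3, 8.51 and 45.6 CPM in the mice given irisin after MPTP, so that mice of 1 group differed more than any 2 group means.

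Total counts ran from 66.7 M to 75.6 M per mouse in the pre-treatment and from 48.8 M to 77.2 M in the delayed experiment (M, mega), of which the collagen genes took 34629 to 43044 and 23447 to 39001 counts. Some mice stood apart by markers of another tissue. The summed CPM of 8 choroid plexus markers, led by the thyroid hormone carrier Ttr, was 1664 in MPTP mouse 2 of the pre-treatment experiment and 22.4 to 48.8 in its other 8 mice. The delayed mice had 1524, 1371 and 252.0 in controls, 78.2, 80.1 and 307.7 with irisin alone, 47.2, 100.4 and 1562 with MPTP, and 189.6, 1684 and 592.3 with irisin after MPTP. All 8 markers were above 0 in every mouse, so no group was free of them. The sum of 12 markers of meningeal and perivascular fibroblasts ran from 142 to 249 CPM in the pre-treatment and from 187 to 347 CPM in the delayed experiment, all 12 above 0 in every mouse. In bulk tissue, fewer cells of a type and less RNA per cell cannot be told apart.

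No collagen gene had an adjusted p under 0.05 in any of the 6 comparisons by edgeR's quasi-likelihood test, nor by DESeq2 or limma. Over all tested genes that threshold was passed by 0.0221% with MPTP against control and 0.0707% with irisin before MPTP against MPTP in the pre-treatment experiment. It was passed in the delayed experiment by 0.132% with MPTP against control, 0.109% with irisin alone against control, 0.00456% with irisin after MPTP against MPTP, and 0.0411% for the difference between the irisin effects with and without MPTP. The values that follow are therefore levels and unadjusted p-values, given without a call. With 3 mice against 3, an exact permutation test of a single gene cannot go below p = 0.1.

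**Figure D2:**
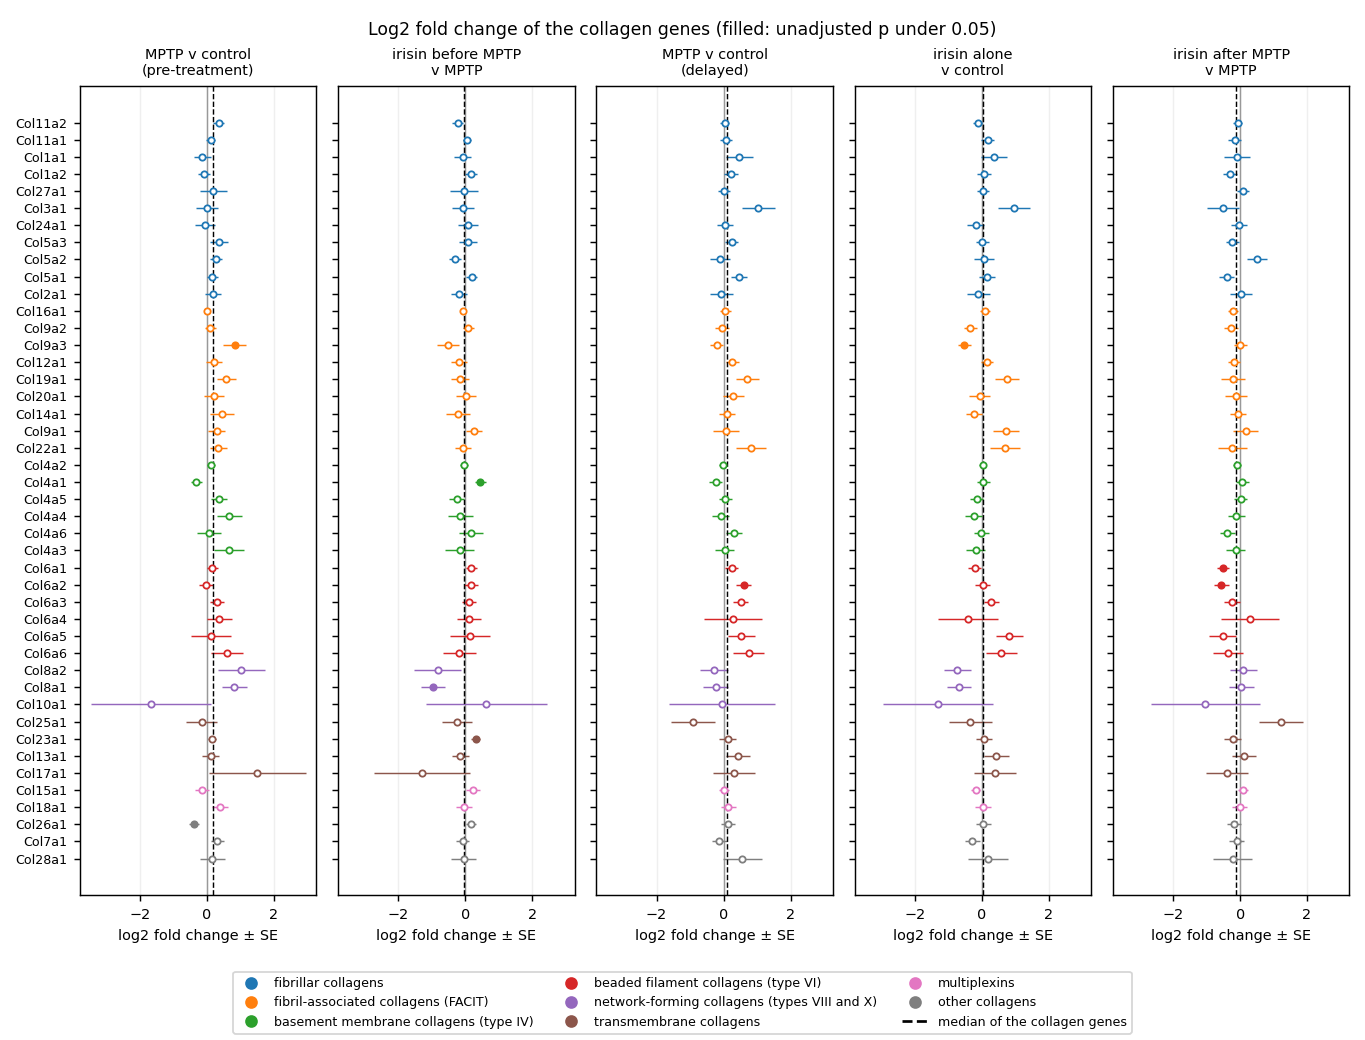
Log2 fold change ± SE of the 44 collagen genes in 5 comparisons, from the edgeR fit, with genes in rows and classes in colours. Filled points have an unadjusted p under 0.05, and the dashed line is the median of the family: 0.19, -0.04, 0.11, 0.03 and -0.13 from left to right, with the widest bars at the lowly counted Col10a1 and Col17a1.

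MPTP against control asked how the family differed after the toxin, first with MPTP as the last agent given. In the pre-treatment experiment 33 of 44 collagen genes had a positive and 11 a negative log2 fold change, with a median of 0.19, where 49.6% of all tested genes were positive and their median was 0.00 to 2 decimals. Unadjusted p was under 0.05 in 2 members, 1 in each direction, against 6.03% of all tested genes, and 2 members had no overlap between the groups, against 11.6% of all. Without MPTP mouse 2 the family's median was 0.06. That mouse was the highest of 9 in 23 of the 44 members.

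Col26a1, a short collagen first found in testis and ovary, was 8.87, 6.65 and 8.02 CPM in controls and 5.94, 5.40 and 6.60 CPM with MPTP (log2 fold change -0.39 ± 0.14 SE, adjusted p = 0.818, edgeR). Every MPTP mouse was below every control. Col9a3 was 7.69, 8.01 and 6.87 CPM in controls and 10.6, 21.5 and 7.86 CPM with MPTP (0.82 ± 0.33, adjusted p = 0.823, edgeR), and the groups overlapped. Its high value was that of MPTP mouse 2, and without it the log2 fold change was 0.30.

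Type VIII collagen, a short-chain network former known from the corneal Descemet's membrane and from vessels, was highest in the same mouse. Col8a1 was 4.01, 3.38 and 4.39 CPM in controls and 3.99, 11.9 and 4.87 CPM with MPTP. Col8a2 was 1.67, 1.18 and 3.63 CPM in controls and 1.67, 9.41 and 2.08 CPM with MPTP. MPTP mouse 2 was 3.05 times the median of the other 8 mice for Col8a1 and 5.02 times for Col8a2, and 9.03 times for the transmembrane collagen Col17a1, which had 0.295 CPM at that median. Col4a3 and Col4a4, the type IV chains of kidney and lung basement membranes, were 2.28 and 2.07 times their medians there, while Col4a1 at 31.5 CPM lay within the range of the others. Of 8 pericyte and smooth muscle markers, 4 were positive and 4 negative with MPTP, with a median of -0.004 (49.6% of all tested genes positive). Among them Kcnj8 of pericytes had 0.37 ± 0.15. The summed choroid plexus markers were 1664 CPM in this mouse, and their part in these values was not tested. The 4 delayed mice with markers over 1000 CPM had Col8a1 at 7.99 to 10.6 and Col8a2 at 7.18 to 11.2 CPM, while the other 8 delayed mice reached at most 6.24 and 5.70 CPM. Those 4 mice were controls 1 and 2, MPTP mouse 3 and mouse 2 given irisin after MPTP, so 3 of the 4 delayed groups held at least 1 of them and the irisin group held none.

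**Figure D3:**
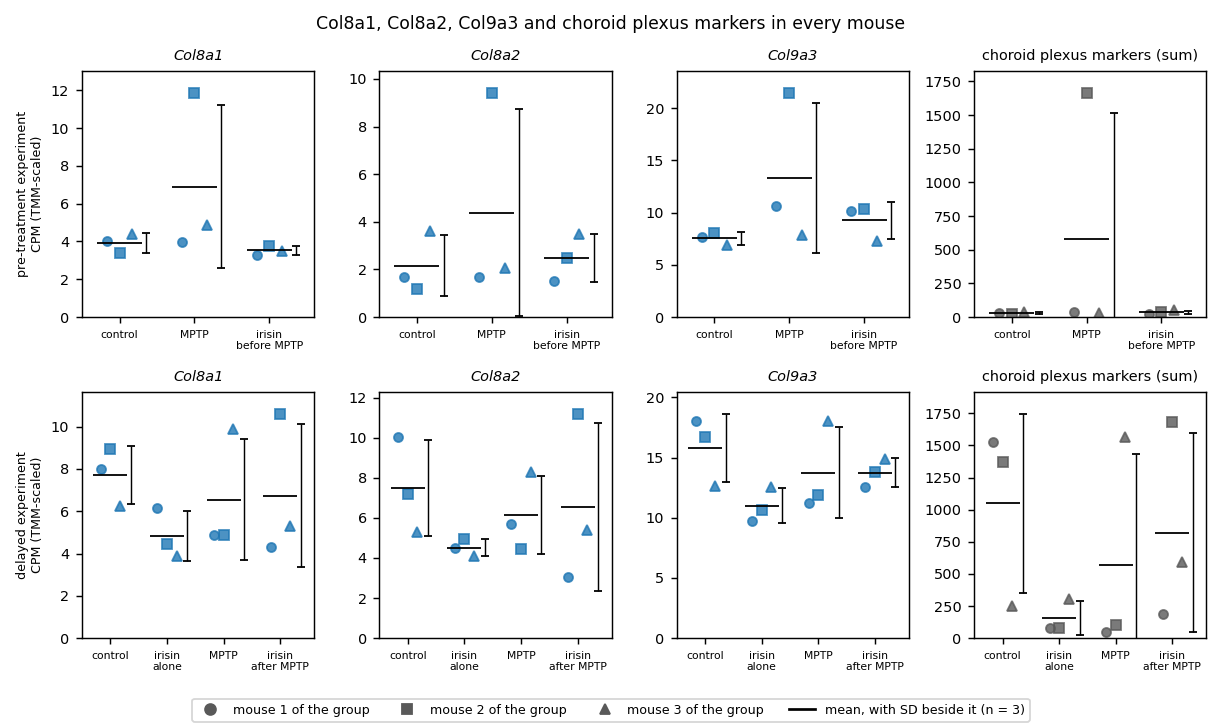
CPM of Col8a1, Col8a2, Col9a3 and the sum of 8 choroid plexus markers in every mouse, with the pre-treatment experiment above and the delayed experiment below. Symbols number the mice of a group, lines are means and the bars beside them SD (n = 3, ending at the axis where they would pass 0), and the mice over 1000 CPM in the markers are above all others of their experiment in Col8a1 and Col8a2.

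In the delayed experiment, with MPTP followed by 5 days of ddH2O, 32 of 44 members were positive and 12 negative, with a median log2 fold change of 0.11 (49.7% of all tested genes positive). Unadjusted p was under 0.05 in 1 member, against 8.33% of all tested genes, and 6 members had no overlap between the groups, all higher with MPTP, against 16.2% of all. All 6 chains of type VI collagen, which forms beaded filaments next to cells, had a positive value, with a median of 0.52. In the pre-treatment experiment 5 of the 6 were positive for MPTP against control, with a median of 0.23. Among the delayed mice, Col6a4, Col6a5 and Col6a6 had means under 1 CPM in both groups. Of the 11 fibrillar chains 9 were positive after the delay, and of the 9 FACIT chains 7, with medians of 0.07 and 0.11. Col6a2 was 11.5, 11.8 and 11.0 CPM in controls and 15.8, 19.3 and 16.8 CPM with MPTP (0.60 ± 0.22, adjusted p = 0.484, edgeR). The groups did not overlap, and the controls lay within 1 CPM of each other. Col6a1 was 13.5, 16.0 and 13.4 CPM in controls and 19.0, 16.2 and 15.3 CPM with MPTP, with overlap (0.24 ± 0.19). The 12 fibroblast markers had a median of 0.13 in this comparison, 11 of 12 positive, and their sum was 302 to 319 CPM in controls and 324 to 345 CPM with MPTP. Among them Lum, a small proteoglycan of collagen fibrils, had 0.50 ± 0.19. Their part in the type VI values was not tested.

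Col3a1 and Col1a1, the main chains of interstitial fibrils, varied widely. Col3a1 was 10.6, 9.21 and 16.3 CPM in controls and 40.2, 19.7 and 14.5 CPM with MPTP (1.04 ± 0.48, adjusted p = 0.61, edgeR), and Col1a1 was 15.9, 15.7 and 26.8 against 34.9, 24.5 and 21.7 CPM (0.48 ± 0.39). Both pairs of groups overlapped. In the pre-treatment experiment the same comparison gave 0.00 ± 0.33 for Col3a1 and -0.14 ± 0.25 for Col1a1.

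Of the 44 members 1 was higher with MPTP without overlap in both experiments, as were 0.804% of the 21153 genes tested in both. Col19a1, a FACIT collagen made by neurons and active at synapses, was 4.83, 4.99 and 2.75 CPM in controls and 5.88, 7.56 and 5.30 CPM with MPTP in the pre-treatment experiment (0.58 ± 0.28, adjusted p = 0.833, edgeR). Delayed, it was 1.51, 2.81 and 2.37 CPM in controls and 4.06, 4.07 and 2.86 CPM with MPTP (0.71 ± 0.35, adjusted p = 0.632, edgeR). It was named after its values were seen, and neither p is under 0.05. The 2 experiments share no mice. With irisin alone Col19a1 was 2.13, 5.62 and 3.53 CPM, overlapping with both.

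Irisin before MPTP against MPTP asked whether prior irisin moved the family in mice given the toxin. Of the 44 members 19 were positive and 25 negative, with a median of -0.04 (50.7% of all tested genes positive), and the median was 0.07 without MPTP mouse 2. Unadjusted p was under 0.05 in 3 members, 2 higher and 1 lower, against 6.22% of all tested genes, and the same number had no overlap, against 14.2% of all. Without that mouse 5 members had an unadjusted p under 0.05.

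Col4a1 was 37.7, 31.5 and 25.2 CPM with MPTP and 43.5, 38.7 and 46.5 CPM with irisin before it (0.45 ± 0.16, adjusted p = 0.694, edgeR), with controls at 43.7, 33.2 and 40.4. Its head-to-head neighbour Col4a2 was 61.1, 72.4 and 60.4 against 63.1, 61.6 and 65.1 CPM (-0.03 ± 0.12). The difference between these neighbours was not tested. Col23a1, a transmembrane collagen, was 9.24, 7.99 and 10.1 CPM with MPTP and 10.2, 12.5 and 11.1 CPM with irisin before it (0.31 ± 0.12, adjusted p = 0.747, edgeR), and 0.22 without MPTP mouse 2. Col8a1 was 3.29, 3.79 and 3.52 CPM with irisin before MPTP, below all MPTP mice (-0.97 ± 0.37, adjusted p = 0.727, edgeR). Without MPTP mouse 2 that value was -0.33. Of the 8 endothelial markers 4 had an unadjusted p under 0.05 in this comparison, 2 higher and 2 lower (6.22% of all tested genes had), and 6 had no overlap, 3 in each direction (14.2% of all). The tight junction gene Cldn5 had means of 12.3 ± 0.631 CPM with MPTP and 17.8 ± 0.162 CPM with irisin before it (SD, n = 3, 0.53 ± 0.09, adjusted p = 0.129 by edgeR, 0.000172 by DESeq2, and 0.000172 to 0.463 over all alternatives), against 16.8 ± 1.33 CPM in controls. MPTP against control gave -0.44 ± 0.09 for Cldn5 (adjusted p = 0.485 by edgeR, 0.0112 by DESeq2, and 0.0112 to 0.973 over all alternatives). The adhesion molecule Pecam1 went the other way with irisin before MPTP, at -0.24 ± 0.08. The sum of the 8 markers was 316 to 320 CPM with MPTP and 323.5 to 336 CPM with irisin before it.

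Irisin alone against control, in the delayed experiment, asked what irisin did in mice without MPTP. The family had 25 positive and 19 negative values and a median of 0.03 (49.5% of all tested genes positive), which was -0.05 without irisin mouse 2. Unadjusted p was under 0.05 in 1 member, against 8.97% of all tested genes, and 5 had no overlap, 1 higher and 4 lower, against 15.1% of all. Col9a3 was 18.0, 16.7 and 12.7 CPM in controls and 9.73, 10.7 and 12.6 CPM with irisin (-0.52 ± 0.19, adjusted p = 0.516, edgeR). Col8a1 was 7.99, 8.92 and 6.24 against 6.14, 4.47 and 3.86 CPM and Col8a2 was 10.0, 7.18 and 5.29 against 4.49, 4.97 and 4.09 CPM, again without overlap (-0.68 ± 0.37 and -0.73 ± 0.41, both with an unadjusted p over 0.05). All 8 choroid plexus markers were lower in this comparison too, with a median of -1.77, and 2 of the 3 controls were mice high in them. With the mice over 1000 CPM in those markers left out, which leaves 1 control against 3 irisin mice, Col9a3 was at -0.20. The part of the choroid plexus markers in the Col9a3, Col8a1 and Col8a2 values was not tested. Of single markers, Kcnj13 of the choroid plexus had -1.74 ± 0.75, Slc6a13 of fibroblasts -0.72 ± 0.29 and Acta2 of smooth muscle -0.52 ± 0.23. The 12 fibroblast markers had 4 positive and 8 negative values, with a median of -0.32. The 8 pericyte and smooth muscle markers had 4 positive and 4 negative values, with a median of 0.01 (49.5% of all tested genes positive). Col3a1 was 24.4, 17.3 and 28.5 CPM with irisin alone, above all controls (0.96 ± 0.48, adjusted p = 0.582, edgeR). The sum of the fibroblast markers was 193 to 295 CPM with irisin and 302 to 319 CPM in controls.

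Irisin after MPTP against MPTP was the contrast for which the family was taken up. Of the 44 members 13 were positive and 31 negative, with a median of -0.13 (49.9% of all tested genes positive). Unadjusted p was under 0.05 in 2 members, both lower, against 3.9% of all tested genes, and 4 had no overlap, all lower, against 10.7% of all. Type VI chains were lowest as a class, with 5 of 6 negative and a median of -0.44, while the median of the 11 fibrillar chains was -0.09 and that of the 6 type IV chains -0.10. With irisin before MPTP against MPTP, 5 of the 6 type VI chains were positive, with a median of 0.13.

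Col6a1 was 19.0, 16.2 and 15.3 CPM with MPTP and 7.97, 12.9 and 14.6 CPM with irisin after it (-0.51 ± 0.19, adjusted p = 1, edgeR). Col6a2 was 15.8, 19.3 and 16.8 against 7.06, 13.1 and 15 CPM (-0.56 ± 0.22, adjusted p = 1, edgeR). In both genes the groups did not overlap, and mouse 1 of the irisin group was far below its fellows. Without it the values were -0.29 for Col6a1 and -0.30 for Col6a2. Col6a5 was 0.900, 0.740 and 1.24 CPM against 0.625, 0.726 and 0.645 CPM, and Col16a1 had means of 32.4 ± 1.61 and 28.1 ± 3.46 CPM (SD, n = 3), neither with overlap and neither with an unadjusted p under 0.05.

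Mouse 1 of the group given irisin after MPTP was below all 11 other delayed mice in 11 of the 44 members. Col3a1 was 6.57 CPM there, 0.334 times the median of the others, Col1a1 was 10.2 CPM (0.416 times), Col1a2 was 25.1 CPM (0.55 times) and Col6a2 0.564 times. Its fibroblast markers summed to 187 CPM, and those of its fellows to 286 and 347 CPM. Mouse 3 given irisin alone had a fibroblast sum of 193 CPM, with Col1a1 at 30.1, Col3a1 at 28.45 and Col1a2 at 45.8 CPM. All 12 fibroblast markers had a negative value for irisin after MPTP against MPTP, with a median of -0.43. Unadjusted p was under 0.05 in 2 of them, against 3.9% of all tested genes, and the MPTP mice were at 324 to 345 CPM. Fibroblasts are known to make these collagens, and the markers' part in the values was not tested. Col15a1, of vessel basement membranes, was highest in mouse 1 given irisin after MPTP (12.7 CPM against 7.92 to 11.0). By fibroblast marker, the log2 fold changes were -0.68 for Aldh1a2 and Slc22a6, -0.66 for Slc6a13, -0.45 for Fmod and Slc13a4, -0.44 for Islr, -0.41 for Lum, -0.39 for Ogn, -0.31 for Dcn, -0.21 for Lama1, -0.16 for Igf2 and -0.05 for Pdgfra. Of other markers without overlap, Otx2 of the choroid plexus list had 1.03 ± 0.28 and Pdgfrb of pericytes -0.17 ± 0.07. All 8 choroid plexus markers were positive, and their sums overlapped (47.2 to 1562 CPM with MPTP, 189.6 to 1684 CPM with irisin after it). The 8 pericyte and smooth muscle markers had 3 positive and 5 negative values. The 8 endothelial markers were 351 to 383 CPM with MPTP and 351 to 390 CPM with irisin after it.

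**Figure D4:**
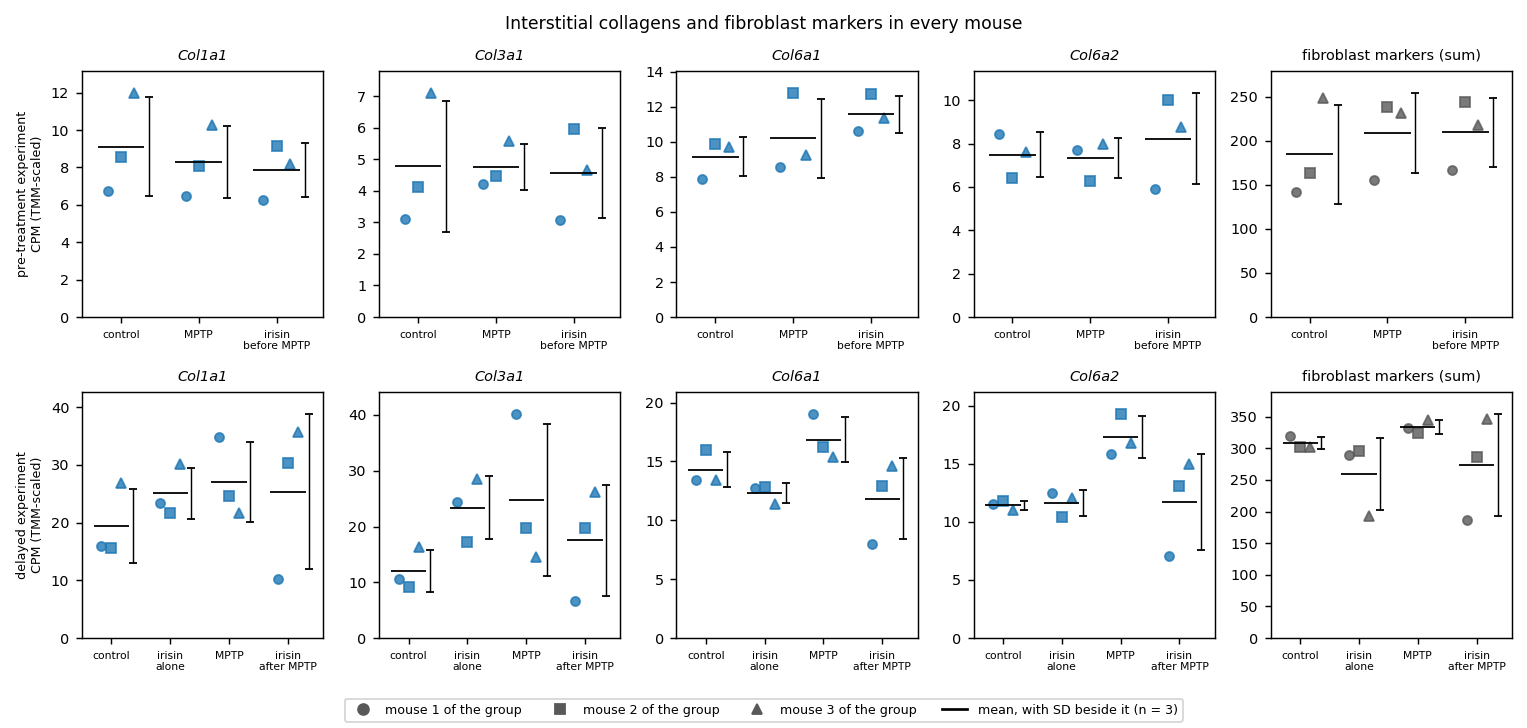
CPM of Col1a1, Col3a1, Col6a1, Col6a2 and the sum of 12 fibroblast markers in every mouse, with the pre-treatment experiment above and the delayed experiment below. Symbols number the mice of a group, lines are means and the bars beside them SD (n = 3), and mouse 1 of the group given irisin after MPTP is lowest of the 12 delayed mice in all 5 panels, with fibroblast markers at 187 CPM.

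The difference between the irisin effects, with MPTP minus without, had an unadjusted p under 0.05 in 1 member, against 5.57% of all tested genes. Of the members 19 were positive and 25 negative, and the median was -0.17. The 1 member was the type VI chain Col6a5, expressed at about 1 CPM and chiefly known from skin. Irisin alone stood at 1.22, 1.52 and 0.752 CPM against 0.331, 0.727 and 0.918 in controls, opposite in sign to the values with MPTP above (difference -1.34 ± 0.56, adjusted p = 0.893, edgeR). The value was -0.71 without the mice high in choroid plexus markers and, on the log2(FPKM + 1) scale, which shrinks low genes, -0.10. Col3a1 gave -1.46 ± 0.68 (adjusted p = 0.893, edgeR), from 0.96 without and -0.50 with MPTP. Col25a1 gave 1.57 ± 0.92, with the wide spread between mice described above.

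The machinery that folds and modifies collagen was described from a list of 16 genes. None had an adjusted p under 0.05 in any comparison by edgeR over all genes that passed the filter on low counts. With irisin before MPTP against MPTP, 4 of the 16 had an unadjusted p under 0.05, all lower (6.22% of all tested genes had), and with MPTP against control in the same experiment 3 did, all higher (6.03% of all). Serpinh1, the collagen chaperone HSP47, was 17.2, 15.6 and 14.6 CPM in controls, 17.5, 19.6 and 19.8 CPM with MPTP and 9.74, 11.4 and 11.4 CPM with irisin before MPTP. P4ha1, a catalytic subunit of the prolyl 4-hydroxylase that acts on prolines in the repeat, was 44.1, 40.7 and 45.7 CPM, then 49.7, 49.5 and 60.2, and then 32.2, 35.6 and 31.0. P4ha2, another such subunit, was 16.9, 14.3 and 19.1 CPM, then 21.3, 23.2 and 24.9, and then 17.1, 16.3 and 18.2. In all 3 genes MPTP mice were above every mouse of both other groups. These comparisons share the MPTP mice.

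For irisin before MPTP against MPTP the log2 fold changes were -0.80 ± 0.11 for Serpinh1 (adjusted p = 0.0582, edgeR), -0.69 ± 0.10 for P4ha1 (adjusted p = 0.0695, edgeR) and -0.43 ± 0.12 for P4ha2 (adjusted p = 0.537, edgeR). DESeq2 put Serpinh1 and P4ha1 past the threshold (adjusted p = 1.87e-07 and 6.32e-06), and edgeR over genes of at least 1 FPKM did so for Serpinh1 (adjusted p = 0.0433). Serpinh1 and P4ha1 were lower in 3 of 3 irisin mice. Over all alternatives run, the adjusted p ranged from 1.87e-07 to 0.272 for Serpinh1 and from 6.32e-06 to 0.294 for P4ha1. The collagen genes themselves had a median of -0.04. In the delayed experiment the same genes gave 0.03, 0.02 and 0.01 for irisin after MPTP against MPTP, and the groups overlapped.

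In the same fit no gene of the other pathway lists had an adjusted p under 0.05. Of 8 genes that process procollagen, 1 had an unadjusted p under 0.05 in any comparison, against 3.9% to 8.97% of all tested genes per comparison. It was Bmp1, the procollagen C-proteinase, with means of 29.6 ± 3.65 CPM in controls and 23.7 ± 1.56 CPM with irisin alone (SD, n = 3, -0.32 ± 0.12). None of the 5 cross-linking lysyl oxidase genes had an unadjusted p under 0.05. Of 9 tested collagen receptors, 1 had one with MPTP in the pre-treatment experiment (6.03% of all tested genes) and 1 with irisin before MPTP (6.22%). Ddr1, a receptor kinase, had -0.21 ± 0.07 in the first, where 7 receptors were positive and 2 negative. Itgb1, the shared integrin beta chain, had -0.27 ± 0.10 in the second, with 4 positive and 5 negative. Of 8 tested genes of collagen breakdown and its inhibition, 2 had an unadjusted p under 0.05 with MPTP in the pre-treatment experiment, 1 in each direction (6.03% of all tested genes), and 3 with irisin before MPTP, of which 1 was higher (6.22% of all). The matrix metalloproteinase Mmp14 had -0.33 ± 0.12 and Timp3 -0.15 ± 0.05 with irisin before MPTP. Timp3, a metalloproteinase inhibitor, had means of 208 ± 5.14 CPM in controls and 248 ± 11.6 CPM with MPTP in the pre-treatment experiment (SD, n = 3, 0.25 ± 0.05, adjusted p = 0.576, edgeR). Ctsk, the collagen-cleaving cathepsin K, was 4.47, 6.30 and 4.85 CPM in those controls and 2.69, 3.71 and 4.02 CPM with MPTP (-0.58 ± 0.20, adjusted p = 0.818, edgeR). After the delay it was 3.04, 3.77 and 4.99 CPM in controls and 10.2, 5.99 and 5.31 CPM with MPTP (0.86 ± 0.25, adjusted p = 0.38, edgeR).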

How the data were processed

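The deposited tables hold, for each gene and mouse, a read count and an FPKM value, and the authors made the counts with featureCounts. How the FPKM values were made is not given in the sources used here. The submitters' processing notes name HISAT, StringTie, edgeR and build mm9, but members' coordinates match GRCm38 (37 of 44 identical to GENCODE M21), which is the build used here. The deposited counts were fitted with edgeR 4.0.16 in R 4.3.3 (filterByExpr at its minimum count of 10 and minimum total of 15, TMM scaling, quasi-likelihood F test, two-sided, group means only), the 9 mice of one experiment and the 12 of the other by themselves. P-values were adjusted by Benjamini-Hochberg over every gene tested, and 0.05 was the threshold. CPM values are counts scaled to library size after TMM. The FPKM values deposited by the authors served for levels between genes and in limma 3.58.1. DESeq2 1.42.0 was another alternative. The test was also tried on simulated data, whose means and spread were taken from these counts.

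The members and lists were chosen with earlier results of these data known. Members were named if an adjusted p was under 0.05, if an unadjusted p was among the 5 smallest under 0.05 without overlap (3 for the difference of irisin effects), if the mean FPKM was among the 8 highest of an experiment or the highest of a class, or if on a fixed list of 8. Other members are named as examples chosen after their values were seen. Genes of other lists, markers included, were named where an unadjusted p was under 0.05 without overlap, up to 2 per list and comparison. Others named beside them (P4ha2 with irisin before MPTP, Serpinh1 with MPTP) were chosen after their values were seen. Each sample was taken as 1 mouse. The labels give only a replicate number, so p-values measure the spread between these samples. No 2 mice of the same group had counts that agree within sampling noise. Sequences to print were chosen with the values known. Promoters came from RefSeq and coding sequences from GENCODE.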

Additional observations from a re-analysis of the deposited data

Results flagged for a closer look

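Genes of the accompanying lists, 2 in number, had opposite values with MPTP in the 2 experiments, with every MPTP mouse on one side of every control. Ctsk had a log2 fold change of -0.58 in the pre-treatment and 0.86 in the delayed experiment, the latter 0.52 without delayed MPTP mouse 1, which had 10.2 CPM. The endothelial marker Itm2a had -0.16 in the first and 0.20 in the second. The difference between the experiments was not tested, as the tables were made separately. No collagen gene behaved in this way.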

How the results depend on the processing

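No collagen gene reached an adjusted p under 0.05 under any alternative run (median ratio scaling, no filter on low counts, genes of at least 1 FPKM, a replicate block, the 2 compared groups alone, DESeq2, limma on log2(FPKM + 1) or log2(FPKM + 0.1), and each mouse left out), and none of the recomputed values of named genes changed sign. Counts of members with an unadjusted p under 0.05 moved. MPTP against control in the pre-treatment experiment went from 2 to 1 with genes of at least 1 FPKM, with the 2 groups alone and with the mouse high in choroid plexus markers left out, to 4 with DESeq2 and to 0 with limma at either pseudocount. Irisin before MPTP went from 3 to 1 with the 2 groups alone and with limma at either pseudocount, and to 5 without the mouse high in choroid plexus markers. MPTP in the delayed experiment went from 1 to 2 with median ratio scaling, 3 without the filter, 6 with the 2 groups alone, 3 with DESeq2 and 0 without the mice high in those markers, which leaves 1 control against 2 MPTP mice and takes the spread from the other groups. Irisin alone went from 1 to 4 with the 2 groups alone and 2 with DESeq2. Irisin after MPTP went from 2 to 0 with the 2 groups alone. The difference of irisin effects went from 1 to 2 without the filter and to 0 with genes of at least 1 FPKM and with limma at either pseudocount. Causes were not tested. With each mouse left out, these counts ran from 0 to 7, 0 to 5, 0 to 4, 0 to 4, 1 to 6 and 0 to 3, in the order above. The family's medians ran from 0.06 to 0.29, -0.11 to 0.07, 0.07 to 0.14, -0.05 to 0.05, -0.20 to -0.05 and -0.30 to -0.01. Leaving out the mice over 1000 CPM in choroid plexus markers was chosen after seeing the data, as was running every alternative on the genes of the other lists.

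Same-numbered mice are different animals and did not deviate together (r from -0.08 to 0.1 and from -0.08 to 0.04). For mice of different numbers r ran from -0.11 to 0.14 and from -0.07 to 0.08. No pairing by number was seen, but values from groups of 3 cannot exclude one. With the replicate block, the members with an unadjusted p under 0.05 were 3, 2, 2, 2, 2 and 1 in the order above, against 2, 3, 1, 1, 2 and 1 without it. Irisin before MPTP also had 2 with genes of at least 1 FPKM.

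Over all genes, DESeq2 passed more at an adjusted p under 0.05 than edgeR, 91 against 5 for MPTP and 168 against 16 for irisin before MPTP in the pre-treatment experiment, and 179 against 29, 140 against 24, 32 against 1 and 62 against 9 for the 4 delayed comparisons. Col10a1 and Col17a1 had group means under 1 CPM throughout, so their values rest on few counts.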
